A study of Macaca mulatta with 10 samples.

Results

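The genes of the cytosolic ribosomal proteins were examined in liver of rhesus macaques (Macaca mulatta) after brain death. Members were all probe sets of the array whose platform annotation gave exactly 1 symbol that was RPSA, began with RPLP, or began with RPL or RPS followed by a digit, with the RPS6K kinases left out. This rule used no signal value, and it found 69 of 52865 probe sets, which stood for 41 gene symbols. By it some genes with a ribosomal protein's name entered that are not subunits, and FAU, which encodes a ribosomal protein fused to a ubiquitin-like sequence, did not.

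The study compared 5 brain-dead donors with 5 living donors, which served as controls, and used 1 one-colour array per animal. In the brain-dead animals a balloon catheter outside the dura was inflated until brain death, blood pressure was then supported with fluid and vasopressin, dopamine or both of these drugs, and the liver was recovered after 6 h by the sample labels or 5 h by the series' design text. The living donors were sedated, anaesthetised and ventilated for 1 h, so drugs and time under ventilation differed together with brain death and cannot be told apart from it. The brain-dead group held 2 females and 3 males, aged 7 to 18 years with 1 age not given, and the control group 3 females and 2 males aged 4 to 20 years. The labels name no genotype, strain or transgene, and in both groups the abdominal organs were flushed with preservation solution before recovery.

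A cytosolic ribosome consists of a small subunit, which reads the messenger RNA, and a large subunit, which joins amino acids and from which an acidic stalk of P proteins recruits elongation factors. Most ribosomal protein transcripts begin with a terminal oligopyrimidine tract (TOP), through which mTOR signalling and LARP1 control their translation more than their amount. Liver makes most plasma proteins and holds many ribosomes, so these transcripts are among its abundant ones. Nucleolar assembly factors join the proteins to ribosomal RNA made by RNA polymerases I and III. Free RPL5 and RPL11 bind MDM2 when assembly is disturbed.

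The array paired a single symbol with 20 of 43 listed large subunit genes, 2 of 3 stalk genes, 12 of 32 small subunit genes and 7 of 10 paralogues or genes named after a ribosomal protein. Another 32 probe sets named a ribosomal protein among several symbols and were no members. RPLP0, RPL3, RPL10, RPL11, RPL13A, RPSA, RPS2, RPS14, RPS27A and the sex-linked RPS4 genes had no such probe set and are not analysed here. Ribosomal protein genes have many processed pseudogenes, and 14 of the 69 probe sets had the ending _s_at and 4 the ending _x_at, which the maker gives to probe sets that can match several transcripts. The signals of such probe sets may hold near-identical copies.

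The deposited value is a MAS5 signal, a linear intensity scaled to the same 2% trimmed mean of 1000 on each array. For testing, a probe set had to exceed the median of the array on 5 or more of 10 arrays, and 26653 probe sets and 9835 genes did. Of the 69 members 58 were kept, for 39 genes. The 11 left out were 4 of 5 probe sets of RPS16, 1 each of RPL13, RPL22, RPL35A and RPS28, both of RPS27L, a stress-induced paralogue, and the 1 of RPL3L, a paralogue of heart and skeletal muscle. RPL3L lay between 11.4 and 84.6 in brain-dead livers and between 13.2 and 141 in control livers. The brighter RPS27L probe set lay between 71.0 and 264 in brain-dead livers and between 81.2 and 208 in control livers. Signals of different probe sets depend on their probes and are not set against each other here. All 11 measured hepatocyte markers were kept, with a summed signal of 898673 to 1090460 in brain-dead livers and 1026970 to 1299840 in control livers. Their median log2 change, brain-dead minus control, was -0.20, and 0 of the 11 lay above 0, against 49.5% of all genes. By the test described here 0 of the 11 passed, with 3 lower at an unadjusted p under 0.05, against 13.2% of all genes. The groups did not overlap for 2 of the 11, APOC3 and AHSG, both lower in brain-dead livers, against 7.8% of all genes. Precision is limited by the number of arrays, and in whole liver fewer cells of a type and less RNA per cell cannot be told apart.

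The arrays numbered 1, 1 in each group and both of females, stood apart in the ribosomal protein probe sets. The 27 genes with a mean log2 signal of 13 or more, a signal of 8192, are called bright here. Their median deviation from the mean over the 10 animals was -1.17 on the log2 scale in brain-dead animal 1 and -0.88 in control animal 1. The other 4 brain-dead animals had values of 0.23, 0.18, 0.39 and 0.40, and the other 4 control animals 0.26, 0.19, 0.16 and 0.28. Both arrays numbered 1 thus lay on the same side, away from every other animal. For the 12 dimmer genes the medians were 0.13, 0.05, 0.16, 0.37 and 0.62 in brain-dead animals 1 to 5 and -0.42, 0.05, -0.19, -0.00 and 0.02 in control animals 1 to 5, with no such gap in the brain-dead group.

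**Figure D1:**
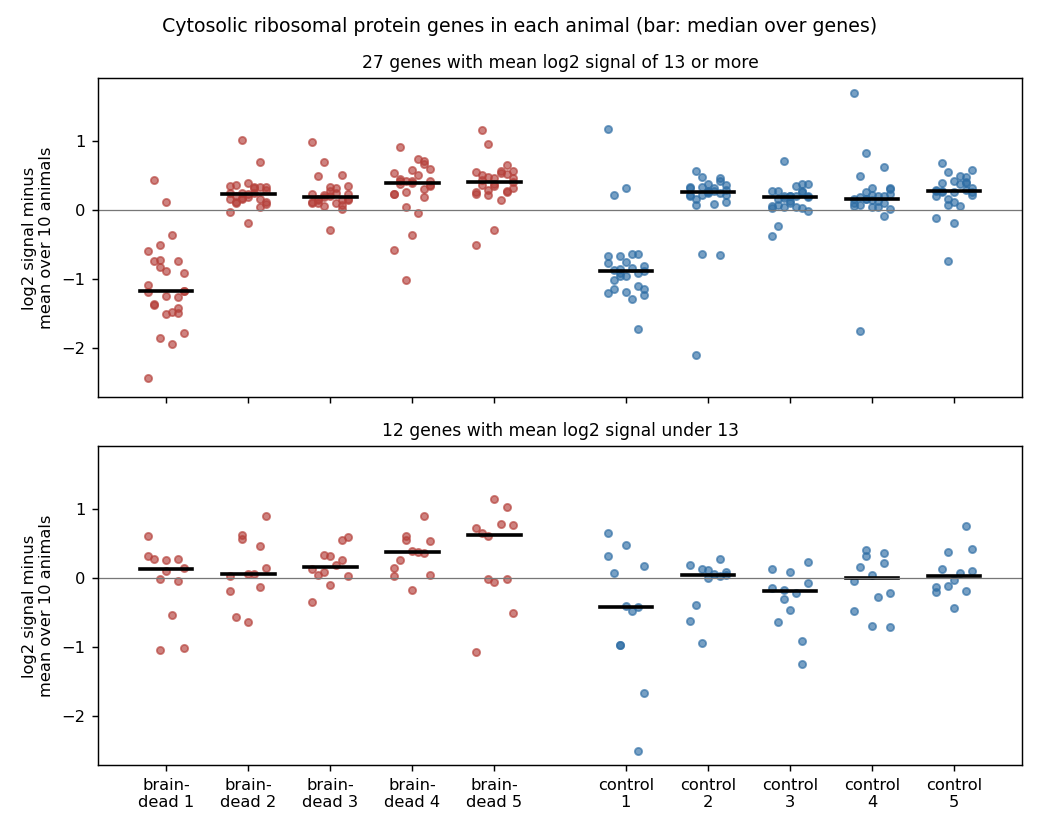
Log2 signal of each ribosomal protein gene minus its mean over 10 animals (vertical axis), for 5 brain-dead animals on the left and 5 control animals on the right, with 27 bright genes above and 12 dimmer genes below and a bar at the median. Among the bright genes the medians of animals 1 are -1.17 and -0.88, and those of the other 8 animals lie between 0.16 and 0.40.

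Of the 58 members kept, 28 (48.3%) were more than 0.8 on the log2 scale below the median of their group's other animals on both arrays numbered 1, against 4.62% of all probe sets kept. Of the 32 bright members 25 (78.1%) did so, against 13.1% of 2006 other bright probe sets. Of 15 members with a mean log2 signal of 10 to 13 there were 3 (20%), against 5.92% of other probe sets of that signal. Of all 22 members below 10, kept or not, there were 0, against 4.72% of other probe sets of that signal. The drop was found in plain probe sets as well as in those ending in _s_at and _x_at. Of 91 probe sets of mitochondrial ribosomal proteins 32 (35.2%) and of 84 of respiratory complex subunits 37 (44%) were low in the same way, 2 families picked after their values were seen. The drop was thus shared with other families. The bacterial spike-in probe sets lay 0.26 and 0.41 above their mean on the brain-dead and control arrays numbered 1, and between -0.29 and 0.11 on the other 8. The 3′ over 5′ ratio of actin, a sign of RNA quality, was 1.15 and 1.24 on the arrays numbered 1 and 1.20 to 1.41 on the others. The part of these values in the drop was not tested.

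**Figure D2:**
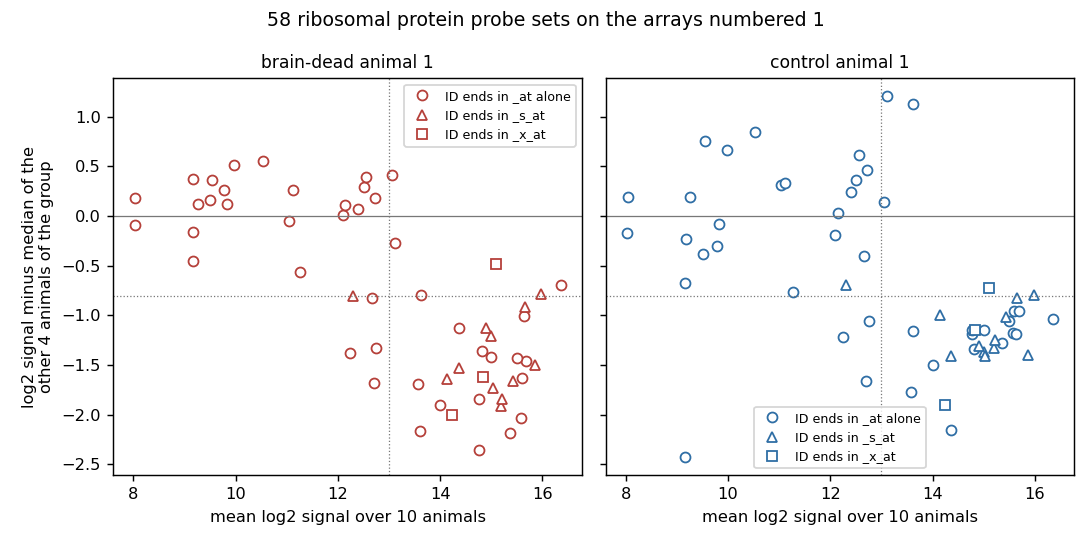
Deviation of the array numbered 1 from the median of its group's other 4 animals (vertical axis, log2) against mean log2 signal (horizontal axis) for 58 ribosomal protein probe sets, brain-dead on the left and control on the right, with marker shapes for the probe set type. Dotted lines stand at 0.8 below and at a mean log2 signal of 13; 25 of 32 members right of the line lie below the other line in both panels.

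RPS21, a small subunit protein, had a signal of 7236 on the array of brain-dead animal 1 and of 34964, 32934, 39440 and 40977 in brain-dead animals 2 to 5. In control animal 1 it was 15560, and in control animals 2 to 5 it was 33663, 35517, 28529 and 39284. The 8 other animals lay close together and the 2 arrays numbered 1 lay far below them. Not all members shared the drop. RPL7, a large subunit protein, deviated by a smaller -0.48 and -0.73. Through its brightest probe set RPL22 deviated by 0.41 and 0.15 on the brain-dead and control arrays numbered 1. Its other probe set kept, ending in _s_at, deviated by -0.81 and -0.70, so the probe sets of RPL22 disagreed. RPL32 deviated by 0.18 and 0.46 in its brightest probe set, and RPS10 by 0.40 and 0.61. RPL24 was low on the brain-dead array alone, by -2.16, and 1.13 higher on the control array.

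No ribosomal protein gene rose or fell between brain-dead and control livers by the test used. With limma (Benjamini-Hochberg over all 26653 probe sets, threshold 0.05), 0 of 58 member probe sets and 0 of 39 genes passed, against 6.1% of all probe sets and 6.77% of all genes. At an unadjusted p under 0.05 there were 11 of 58 probe sets, against 23.7% of all probe sets. Of these 8 were higher and 3 lower, against 11.5% and 12.2% of all probe sets. By genes there were 4 of 39, RPL31, RPL19 and RPS19BP1 higher and RPL22 lower, against 25.1% of all genes (11.9% higher and 13.2% lower). The median log2 change of the 39 genes was 0.081, and that of all genes kept was -0.0069. Of the 39 genes 24 lay above 0, against 49.5% of all genes.

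The bright ribosomal protein genes had a median change near 0, and their errors were smaller once the arrays numbered 1 were set aside. Both arrays were set aside with their low values in these same genes known. Smaller errors without them follow from that choice and are no separate sign of little change. Over the 27 bright genes the median log2 change was 0.033 with all animals and 0.076 without both arrays numbered 1, and the median standard error (SE) 0.35 and 0.15. The 95% interval of the change lay within 1 of 0, a factor of 2 either way, for 18 of the 27 genes with all animals and for 24 without both arrays numbered 1. Within 0.5 of 0 it lay for 1 and for 15 of them. Without both arrays numbered 1 still 0 of 58 probe sets and 0 of 39 genes passed, against 2.53% of all probe sets and 3% of all genes. At an unadjusted p under 0.05 these were 9 of 58 probe sets, against 20.7%, and 5 of 39 genes, against 22.6%. The median SD within groups over the 39 genes was 0.17 without these arrays and 0.60 with them. Over the 27 bright genes it was 0.16 without and 0.65 with them, and over the 12 dimmer genes 0.39 and 0.44. For 1067 other bright genes it was 0.32 without and 0.40 with them.

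**Figure D3:**
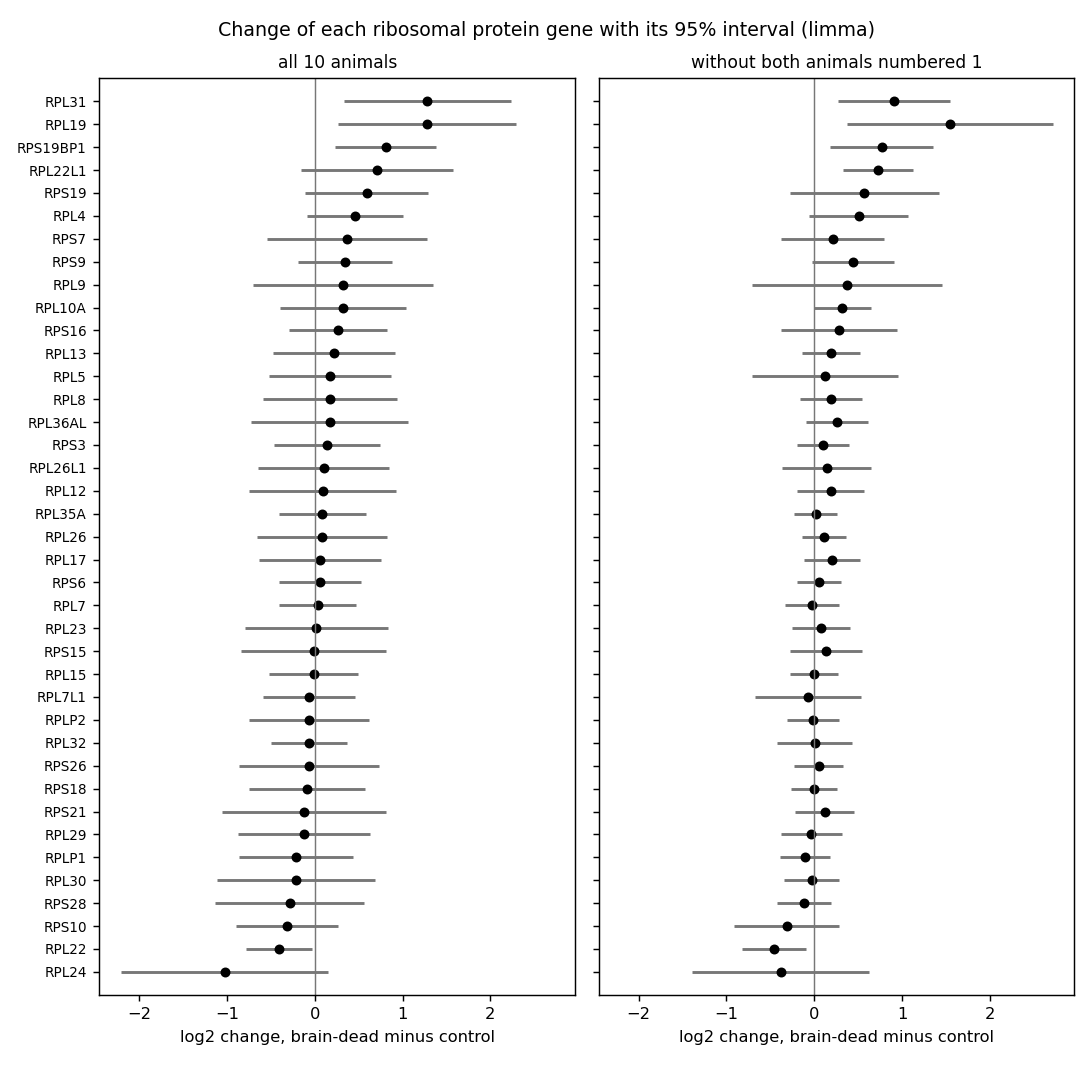
Log2 change, brain-dead minus control, of each of 39 ribosomal protein genes (points) with its 95% interval from limma (lines), with all 10 animals on the left and without both animals numbered 1 on the right. No gene passes an adjusted p of 0.05 in either panel, and the intervals of most bright genes are narrower on the right.

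Among large subunit genes 0 of 20 passed in either direction, with changes from -1.03 to 1.28, a median of 0.083 and 14 above 0. At an unadjusted p under 0.05 there were 2 higher and 1 lower, against 11.9% and 13.2% of all genes. RPL31, which lies near the exit of the tunnel through which the new chain leaves, had the largest change. Its signal was 692, 792, 840, 1064 and 1170 in brain-dead livers, against 101, 586, 303, 738 and 504 in control livers. Brain-dead livers were higher except that control animal 4 lay above brain-dead animal 1, and control animal 1 was by far the lowest of the 10. The means were 911 ± 199 in brain-dead livers and 447 ± 249 in control livers (SD, n = 5 each), a log2 change of 1.28 ± 0.44 (SE) with a limma adjusted p of 0.100. Without both arrays numbered 1 it was 0.91 ± 0.29 with an adjusted p of 0.114.

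RPL19, a protein of the bridge between the subunits, had a log2 change of 1.28 ± 0.47 (SE; limma adjusted p 0.121). It had 11927, 10198, 12438, 16581 and 19781 in brain-dead livers and 10234, 2063, 7533, 2620 and 14123 in control livers. The brain-dead animals kept to a narrow range, while 2 of 5 controls, animals 2 and 4, lay far below all others. RPL24, another bridge protein, had 2321, 12227, 24704, 8402 and 8806 in brain-dead livers and 28258, 14410, 9641, 40418 and 11523 in control livers. The groups overlapped widely, and its change of -1.03 ± 0.55 (adjusted p 0.276) was -0.38 ± 0.46 without both arrays numbered 1.

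RPL22 is an RNA-binding protein that mice can live without. Its signal was 9290, 7457, 6980, 6665 and 6967 in brain-dead livers, against 10605, 10146, 9797, 9384 and 9286 in control livers. All brain-dead animals lay below all controls save animal 1, which was level with the lowest control. The change was -0.41 ± 0.18 (adjusted p 0.181) and -0.46 ± 0.16 without both arrays numbered 1 (adjusted p 0.152). A second RPL22 probe set, ending in _s_at, had -0.34 ± 0.24.

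RPL22L1, the paralogue that can take the place of RPL22 in the ribosome, lay the other way. It had 3317, 12392, 10051, 9716 and 11321 in brain-dead livers, against 2119, 7091, 6331, 5767 and 7131 in control livers. Brain-dead animals 2 to 5 were all above control animals 2 to 5, and the arrays numbered 1 were the lowest of each group. Its change was 0.71 ± 0.40 (adjusted p 0.311) with all animals and 0.72 ± 0.18 (adjusted p 0.0612) without both arrays numbered 1, so its size stayed and its error shrank. In mice Rpl22 protein is known to hold back Rpl22l1. Neither gene passed with group alone in the model.

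**Figure D4:**
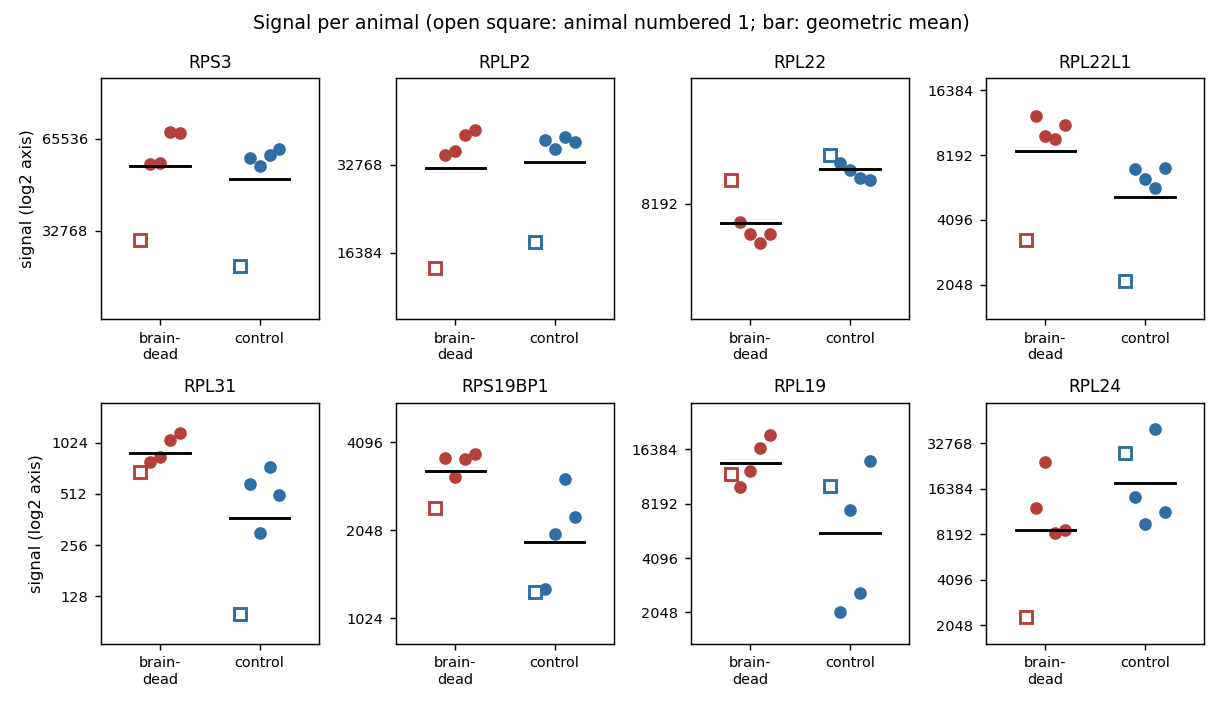
Signal on a log2 axis in each brain-dead animal (left in each panel) and control animal (right) for 8 ribosomal protein genes, with an open square for the animal numbered 1 and a bar at the geometric mean. RPS3 and RPLP2 show 2 low arrays and otherwise overlapping groups, while RPL22 and RPL22L1 separate the groups in animals 2 to 5.

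RPL10A, of the stalk through which transfer RNA leaves, had 15243, 35981, 33743, 43203 and 42367 in brain-dead livers and 12254, 33222, 28435, 28984 and 33458 in control livers. Brain-dead animals 2 to 5 lay just above control animals 2 to 5, and its change was 0.32 ± 0.33 (limma adjusted p 0.606). Without both arrays numbered 1 the groups did not overlap for 5 of 39 genes, which were RPL10A, RPL22, RPL22L1, RPL31 and RPS19BP1, against 13.5% of all genes. With all animals this held for 0 of 39 genes, against 7.8% of all genes.

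RPL4, an early-assembling protein whose loop lines the exit tunnel, had a change of 0.46 ± 0.25 (adjusted p 0.295), and its groups overlapped. RPL5, which carries 5S ribosomal RNA and binds MDM2, had 523 to 737 in brain-dead livers and 241 to 960 in control livers, so that the controls spread to both sides. Its change was 0.18 ± 0.32. RPL29 and RPL30 had changes of -0.13 ± 0.35 and -0.21 ± 0.42, which moved to -0.033 ± 0.16 and -0.030 ± 0.14 without both arrays numbered 1. RPL29, RPL30, RPLP1, RPLP2, RPS21 and RPS28 each lay above 0 when brain-dead animal 1 alone was left out and the low control array kept. Without both arrays numbered 1 only RPS21 of these 6 lay above 0.

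Neither of the stalk genes measured, RPLP1 and RPLP2, passed. RPLP2 had 14542, 35300, 36390, 41460 and 43140 in brain-dead livers and 17802, 39858, 37218, 40944 and 39155 in control livers. Outside the arrays numbered 1 all 8 animals lay in 1 cluster, and the change was -0.068 ± 0.32 with all animals and -0.012 ± 0.13 without both arrays numbered 1. RPLP1 averaged 52436 ± 17545 in brain-dead livers and 58580 ± 14809 in control livers (SD, n = 5 each), a change of -0.21 ± 0.30 (adjusted p 0.718). Its 95% interval was -0.86 to 0.44.

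Among small subunit genes 0 of 12 passed in either direction, with changes from -0.32 to 0.59, a median of 0.024 and 6 above 0. At an unadjusted p under 0.05 there were 0 of 12, against 25.1% of all genes. RPS6, the substrate of the S6 kinases, averaged 67306 ± 13820 in brain-dead livers and 64720 ± 13952 in control livers (SD, n = 5 each). Its change was 0.059 ± 0.22, with a 95% interval of -0.41 to 0.53, and without both arrays numbered 1 the interval was -0.20 to 0.31. RPS3, at the entry of messenger RNA, had 30538, 54296, 54696, 69065 and 68544 in brain-dead livers and 25094, 56586, 53461, 57938 and 60823 in control livers, and a change of 0.14 ± 0.28. Apart from the arrays numbered 1, the groups of RPS3 overlapped in a range of less than a factor of 2.

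RPS19, a protein mutated in Diamond-Blackfan anaemia in humans, had the largest change of the small subunit. Its dim probe set had 313, 168, 327, 342 and 573 in brain-dead livers and 197, 284, 190, 160 and 257 in control livers. Brain-dead animal 2 lay among the controls, and the change was 0.59 ± 0.32 (adjusted p 0.292). RPS7 and RPS9 had changes of 0.37 ± 0.42 and 0.34 ± 0.25. RPS7 was also low in control animal 2, at 13458 against 27455 to 32381 in control animals 3 to 5. RPS10 had a change of -0.32 ± 0.27 and its lowest signal, 2861, in brain-dead animal 5. RPS28 averaged 50132 ± 21040 in brain-dead livers and 56769 ± 17048 in control livers (SD, n = 5 each), a change of -0.29 ± 0.40 that was -0.12 ± 0.14 without both arrays numbered 1.

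Of the paralogues and genes named after a ribosomal protein 0 of 5 passed in either direction. Only 1 of the 5, RPS19BP1, had an unadjusted p under 0.05, against 25.1% of all genes. RPS19BP1 binds RPS19 and is not itself a part of the ribosome. It had 2438, 3625, 3110, 3587 and 3735 in brain-dead livers, against 1254, 1289, 1993, 3077 and 2279 in control livers. Brain-dead livers were higher except that control animal 4 lay above brain-dead animal 1. Its means were 3299 ± 537 in brain-dead livers and 1978 ± 758 in control livers (SD, n = 5 each). The change of 0.81 ± 0.27 had the lowest adjusted p of the 39 genes, 0.0925, and was 0.77 ± 0.27 without both arrays numbered 1.

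RPL26L1 and RPL36AL, both near copies of a large subunit gene, had changes of 0.099 ± 0.35 and 0.17 ± 0.42. RPL7L1, a relative of RPL7 found on large subunit precursors, had 4 probe sets kept. Its brightest gave -0.062 ± 0.24, and the other 3 gave 0.57, 0.56 and 0.40, with 0 of the 4 past the threshold.

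Probe sets of a gene could give different signs. Of 14 genes with more than 1 probe set kept, 4 had 1 sign throughout, which were RPL13, RPL15, RPL22 and RPS6. Among the rest, RPL23 (-0.013 and 0.016) and RPL35A (-0.076 and 0.084) lay near 0 in both probe sets. The share over all genes was not counted. RPL9 differed most. Its _s_at probe set had 10231, 36318, 29207, 8994 and 34925 in brain-dead livers and 9298, 11597, 29541, 31959 and 10901 in control livers. The animals formed a high and a low set that crossed both groups, with brain-dead animal 4 and control animals 2 and 5 as low as the arrays numbered 1. Its plain probe set had 1477, 1531, 1173, 864 and 636 in brain-dead livers and 3157, 1605, 2284, 1729 and 1795 in control livers, with every brain-dead animal below every control and a change of -0.92 ± 0.28 (adjusted p 0.0708).

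The plain RPL15 probe set was the only other one of the 58 whose groups did not overlap, against 6.93% of all probe sets. It had 4621, 5153, 4517, 4276 and 4245 in brain-dead livers and 7177, 7065, 6070, 5712 and 6042 in control livers, a change of -0.49 ± 0.18 (adjusted p 0.115). The brighter _s_at probe set of RPL15 had a change of -0.013 ± 0.24. Of the 4 RPL13 probe sets kept the changes ran from 0.22 to 0.97, and the dimmest of these 4 had the largest, 0.97 ± 0.32 (adjusted p 0.0897). RPS15 had -0.011 in its brightest probe set and 0.68 ± 0.29 (adjusted p 0.176) in its other one.

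Across the 8 animals not numbered 1, with group means removed, each gene was set against the mean of the other 38. As a description, the median Pearson r was 0.44, from -0.74 for RPS10 to 0.87 for RPS3, with 27 of 39 above 0. Such values were not computed for other genes, so it cannot be told whether this likeness is particular to ribosomal protein genes. All genes of an array share its scaling, so part of this likeness can lie in it. The change with brain death was also fitted apart for females and males. The limma interaction of group with sex passed for 0 of 39 genes and 0 of 26653 probe sets, with 0 of 39 genes and 1015 probe sets at an unadjusted p under 0.05.

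Some of the genes that assemble the ribosome rose in brain-dead livers. Of 66 assembly genes kept, 6 rose and 0 fell, against 2.9% of all genes that rose and 3.87% that fell. Their median change was 0.62, beside 0.081 for the ribosomal protein genes and -0.0069 for all genes, and 63 of 66 lay above 0. Whether the lists differ was not tested. EBNA1BP2, a large subunit assembly factor, had 4759, 6678, 5881, 9354 and 10233 in brain-dead livers, against 2219, 2386, 2639, 4473 and 3124 in control livers. Every brain-dead animal lay above every control, and it rose by 1.30 ± 0.27 (adjusted p 0.0173).

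RRP12, an export factor of the subunits, rose by 1.85 ± 0.42 (limma adjusted p 0.0240). It had 3000, 980, 1526, 2369 and 6338 in brain-dead livers and 762, 462, 459, 749 and 923 in control livers, with brain-dead animal 5 far above the others. TSR1, a small subunit assembly factor, rose by 1.15 ± 0.25 (adjusted p 0.0221), RRP9, of the U3 particle, by 0.95 ± 0.25 (adjusted p 0.0388), NOL6 by 1.23 ± 0.32 (adjusted p 0.0408) and MRTO4, which holds the place of the stalk during assembly, by 1.07 ± 0.28 (adjusted p 0.0427). Brain-dead animals 1 to 5 lay above all controls for these genes except NOL6, for which control animal 5 lay above brain-dead animal 2. FBL, NPM1 and GNL3, abundant nucleolar genes, had changes of 0.71, 0.43 and 0.87 and did not pass, with adjusted p of 0.109, 0.247 and 0.118. NCL, another nucleolar gene, was measured by a dim probe set ending in _x_at, with its lowest signal, 61.0, in control animal 1. Its change was 0.85 (adjusted p 0.246) and 0.37 without both arrays numbered 1. XRN2, an exonuclease, had the lowest change of the list, -0.93 ± 0.29 (adjusted p 0.0724).

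With each array centred on its median, or without the filter, RRP9, MRTO4 and NOL6 no longer passed, and the limma adjusted p was 0.0556, 0.0568 and 0.0527 after centring. The 6 calls also depended on the animals included. Without both arrays numbered 1 only EBNA1BP2 of the 66 assembly genes passed, with a change of 1.35 and an adjusted p of 0.0302. In that fit 1.35% of all genes rose, so the count of 1 of 66 was near the share of all genes. The changes of the other 5 ran from 0.81 to 1.82. The count of assembly genes that rose was 1 without brain-dead animal 4, control animal 2 or control animal 3, and 2 without brain-dead animal 5. It was 3 without brain-dead animal 1 or control animal 1, and 11 without brain-dead animal 2. The shares of all genes that rose with 1 animal left out are not given here. Of the marker lists for other cells, 3 of the 4 neutrophil genes kept, of 12 listed, lay above 0, with a median change of 0.97. None of the neutrophil genes passed the threshold, and 3 were higher at an unadjusted p under 0.05, against 11.9% of all genes. Their summed signal was 1044 to 2496 in brain-dead livers and 649 to 1639 in control livers, and none was at 0. Endothelial genes had a median change of -0.35, with 1 of 7 above 0 and 0 past the threshold. Lower at an unadjusted p under 0.05 were 2 of the 7, against 13.2% of all genes. The summed signal of endothelial genes was 20040 to 28689 in brain-dead livers and 22201 to 38743 in control livers. Macrophage genes had a median of -0.33, with 1 of 9 above 0 and 0 at an unadjusted p under 0.05, against 25.1% of all genes. Their sums were 53360 to 115525 in brain-dead livers and 71693 to 125245 in control livers. The other lists, of lymphocyte, bile duct and stellate cell genes, had 4, 2 and 3 genes kept. In these lists 0 were at an unadjusted p under 0.05, against 25.1% of all genes. The part of these cells in the assembly genes was not tested.

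**Figure D5:**
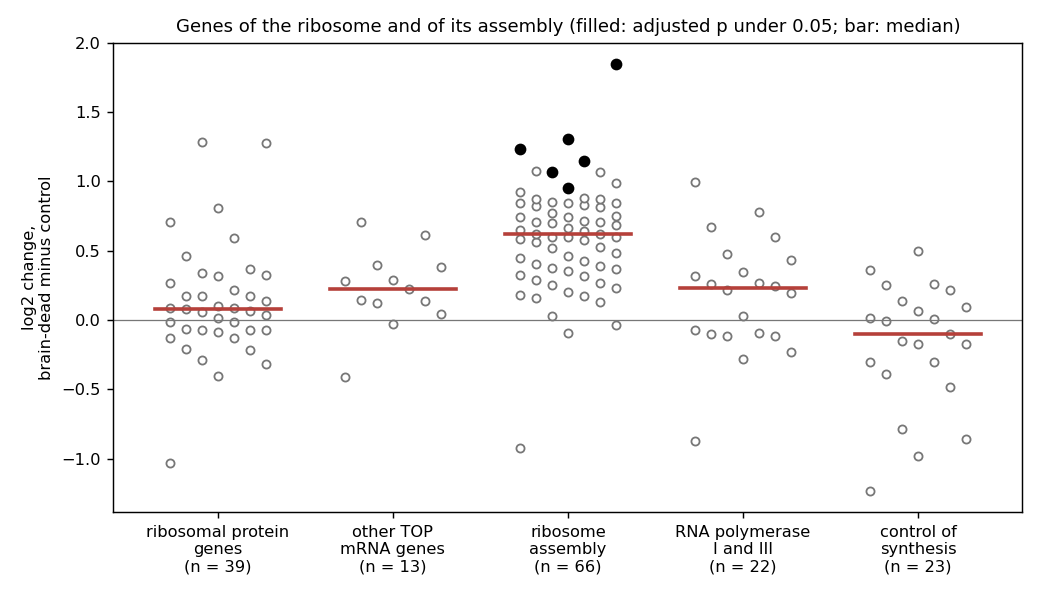
Log2 change, brain-dead minus control (vertical axis), of each gene in 5 lists, with filled points for an adjusted p under 0.05 and a bar at the list's median. The ribosomal protein genes centre near 0 with a median of 0.081, while 63 of 66 assembly genes lie above 0.

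Of 13 other TOP genes, mostly translation factors, 0 rose and 0 fell, with a median change of 0.22 and 11 above 0. There were 3 higher and 0 lower at an unadjusted p under 0.05, against 11.9% and 13.2% of all genes. RACK1, a scaffold on the small subunit, averaged 46439 ± 8175 in brain-dead livers and 38653 ± 9400 in control livers (SD, n = 5 each), a change of 0.29 ± 0.22. VIM, an intermediate filament gene whose transcript also has a TOP, had the largest change, 0.71 ± 0.24 (limma adjusted p 0.0960). FAU averaged 33368 ± 13347 in brain-dead livers and 30205 ± 10524 in control livers (SD, n = 5 each), a change of 0.097 ± 0.38. Of 22 genes of RNA polymerases I and III 0 passed in either direction. At an unadjusted p under 0.05, 2 were higher and 0 lower, against 11.9% and 13.2% of all genes. The median change of the 22 genes was 0.23, with POLR1C, a subunit of both, highest at 1.00 ± 0.34 (adjusted p 0.0973).

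Of 23 genes that control ribosomal protein synthesis 0 passed in either direction, with a median of -0.10 and 10 above 0. There were 0 higher and 5 lower at an unadjusted p under 0.05, against 11.9% and 13.2% of all genes. DDIT4, an inhibitor of mTOR, averaged 6088 ± 2720 in brain-dead livers and 14127 ± 6314 in control livers (SD, n = 5 each), a change of -1.23 ± 0.38 (limma adjusted p 0.0693). DEPTOR, MXI1 and SESN1, inhibitors of mTOR or of MYC, had changes of -0.98, -0.85 and -0.79 with adjusted p of 0.0892, 0.0808 and 0.0931. The mTOR inhibitors TSC1, TSC2 and AKT1S1 of the same list had -0.0084, -0.30 and 0.21, with adjusted p of 0.989, 0.541 and 0.629. MYC itself, a driver of ribosome genes, averaged 18692 ± 3910 in brain-dead livers and 20812 ± 2336 in control livers (SD, n = 5 each), a change of -0.18 ± 0.20. LARP1 had -0.48 ± 0.19 (adjusted p 0.139), and MTOR -0.15 ± 0.25.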

How the data were processed

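The values deposited by the authors are linear intensities, 1 for each probe set on an array, which per the submitters' processing notes is a MAS5 signal, with the version not given in the sources used here. Symbols came from the platform annotation paired with the probe sets, in which 24969 had 1 symbol, 361 several and 27535 none. All 41 gene IDs of the members were matched in a gene table of current symbols. Control probe sets, 99 in number, were not tested. Signals were put on the log2 scale without a pseudocount and tested with limma 3.58.1 in R 4.3.3 (lmFit, eBayes with trend, group alone, Benjamini-Hochberg), and a gene stood for its kept probe set of highest mean. Other software was data.table (version 1.17.8), pandas (version 2.3.3) and matplotlib (version 3.10.9). The fit was tested on simulated data. The members, lists and the choice to leave out both arrays numbered 1 were made with earlier results of these data known. Named members were the 8 largest rises and 8 largest falls and genes picked by role, and of other lists up to 6 genes past the threshold. Further genes, such as RPL7, RPL9, RPL13, RPL15, RPL32 and RPS15 and those of other lists that did not pass, were named after their values were seen. A planned check of sex labels by the RPS4 genes was not run. The labels call the samples separate animals. Alternatives were quantile normalization, centring, pseudocounts of 16 and 64, other filters, sex and age, a replicate block, other eBayes settings, array weights, other thresholds, other probe set rules, and leaving out animals.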

Additional observations from a re-analysis of the deposited data

Results flagged for a closer look

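For 24 named ribosomal protein genes, each group was checked by Dixon's ratio of an animal's gap to the group's range (critical value 0.71 for 5 animals). In 11 brain-dead and 8 control groups 1 animal lay far from the others. For a single gene chance gives about 1 in 20. The genes share their arrays, so these counts cannot be set against that rate, and the share over all genes was not counted. Brain-dead animal 1 was the low one in 10 of the 11 and control animal 1 in all 8. In both groups this held for RPL10A (0.763 in brain-dead and 0.838 in control livers), RPL22L1 (0.815 and 0.825), RPL30 (0.873 and 0.743), RPL36AL (0.814 and 0.83), RPLP2 (0.816 and 0.885), RPS28 (0.833 and 0.758) and RPS6 (0.867 and 0.818). In brain-dead livers alone it held for RPL29 (0.827), RPLP1 (0.833) and RPS21 (0.874), and in control livers alone for RPS3 (0.854). RPL7L1 (0.815) differed from these, since its low animal was brain-dead animal 5, at 3184 against 4610 to 5014 in the other brain-dead animals.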

How the results depend on the processing

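The count of ribosomal protein probe sets past the threshold stayed at 0 except as follows. It was 1 with array weights (RPL9, lower) and 3 at an adjusted p under 0.1. At an unadjusted p under 0.05 it was 11 of 58, against 23.7% of all probe sets. When 1 animal was left out it was 0 to 3, with 3 (RPL13, RPL31 and RPS19BP1) without control animal 4. The shares of all probe sets with array weights, at an adjusted p under 0.1 and with 1 animal left out are not given here. The count of genes was 0 to 2 when 1 animal was left out, and without control animal 4 RPL31 changed by 1.54 (limma adjusted p 0.0492) and RPS19BP1 by 0.99 (adjusted p 0.0313). With the replicate number as a block, 5 of 58 probe sets passed (4 higher, 1 lower), against 11.3% of all probe sets, 3013 in number. By genes 3 of 39 passed, RPL22L1 (adjusted p 0.0214), RPL31 (adjusted p 0.0407) and RPS19BP1 (adjusted p 0.0423), against 12.9% of all genes. Same-numbered animals deviated together with r of 0.380, 0.0643, 0.128, 0.0889 and 0.128 for numbers 1 to 5, so the numbers were not taken to pair the animals, and 2 of 5 brain-dead animals, 1 and 5, were most like the control of their own number. The count of assembly genes that rose, 6, was 3 after centring on the array median and 3 without a filter. It was 22 with the block, 1 without both arrays numbered 1 and 1 to 11 when 1 animal was left out. Of all genes 2.9% rose in the main fit, 6.16% with the block and 1.35% without both arrays numbered 1. The median change of the assembly genes lay between 0.49 and 0.74 under all 23 alternatives. The median over the ribosomal protein genes ran from -0.12 to 0.34 when 1 animal was left out.

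Of 549 values of the named members, 25 had the opposite sign, over 13 of 24 genes. With quantile normalization RPLP2 was at 0.031, with centring RPL7L1 at 0.0058, with sex in the model RPL26L1 at -0.016, RPL36AL at -0.0018 and RPS6 at -0.0076, with sex and age RPL36AL at -0.0080 and RPS6 at -0.016, and without both arrays numbered 1 RPS21 at 0.12. When 1 animal was left out, RPL26L1 ran from -0.13 to 0.37, RPL29 from -0.36 to 0.20, RPL30 from -0.47 to 0.22, RPL36AL from -0.13 to 0.56, RPL5 from -0.11 to 0.38, RPL7L1 from -0.25 to 0.056, RPLP1 from -0.40 to 0.078, RPLP2 from -0.30 to 0.22, RPS21 from -0.35 to 0.34, RPS28 from -0.53 to 0.12, RPS3 from -0.10 to 0.34, RPS6 from -0.099 to 0.21 and RPS7 from -0.019 to 0.60. The cause was not tested. The model with age dropped the animal of unknown age.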
